A study of Mus musculus with 18 samples.

Results

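The genes described here are 40 type I interferon response genes of the mouse, chosen as a list of known interferon-stimulated genes together with both chains of the interferon receptor. Of these, 38 were present in the deposited count table of 19630 genes, and the other 2, Mx1 and Mx2, are not analysed here. Each was measured in 18 libraries of messenger RNA, 3 in each of 6 groups of cultures. The groups were embryonic stem (ES) cells on feeders labelled p53-defective, ES cells given ATN161 (a peptide inhibitor of the fibronectin receptor integrin α5β1) instead of feeders, ES cells grown on control feeders with the feeders removed, ES cells on control feeders, p53-defective feeders alone and control feeders alone. Feeders are embryonic fibroblasts that support ES cells in culture. The labels name no strain, no line or clone of cells, no dose of ATN161 and no time, and they do not say how the p53 of the feeders was altered or whether removal means separation before lysis or a period of growth without feeders. The series title places the study in p53 control of pluripotency through fibronectin and integrins. Each type of culture was checked against marker genes below.

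Type I interferons bind a receptor made of the chains Ifnar1 and Ifnar2. The receptor's kinases Jak1 and Tyk2 then phosphorylate Stat2, which acts with Irf9 in the complex ISGF3, and this complex binds the interferon-stimulated response element in the promoters of its many target genes. The products of these genes detect foreign RNA, degrade it, block its translation and trap virus at the cell surface, and fibroblasts are a textbook responder cell. Pluripotent stem cells are known for a weak response.

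The response element is visible in the promoters themselves, so the sequences of members on which the results turn are given first. RefSeq promoters of build GRCm38.p6, each 300 bases long with 250 bases before the start site and 50 from it on, were given for 30 of the 38 members. They are printed 5′ to 3′ on the strand of the gene, and capitals mark each match to the core of the response element, GAAANNGAAA (N is any base), on either strand. Isg15, the ubiquitin-like modifier, lies on the minus strand (chr4:156200769-156201068). Rsad2, which encodes the antiviral enzyme viperin, lies on the minus strand (chr12:26456403-26456702). Oas1a, an oligoadenylate synthetase gene, lies on the minus strand (chr5:120907476-120907775). Stat2 lies on the plus strand (chr10:128270248-128270547), and Oasl2, shown as a member without a match, lies on the plus strand (chr5:114896684-114896983).
Isg15: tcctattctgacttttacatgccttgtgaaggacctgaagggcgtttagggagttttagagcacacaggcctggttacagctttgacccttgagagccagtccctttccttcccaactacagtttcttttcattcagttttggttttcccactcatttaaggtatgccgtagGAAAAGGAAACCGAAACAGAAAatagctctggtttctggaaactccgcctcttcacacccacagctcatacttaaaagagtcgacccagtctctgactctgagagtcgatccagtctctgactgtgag
Rsad2: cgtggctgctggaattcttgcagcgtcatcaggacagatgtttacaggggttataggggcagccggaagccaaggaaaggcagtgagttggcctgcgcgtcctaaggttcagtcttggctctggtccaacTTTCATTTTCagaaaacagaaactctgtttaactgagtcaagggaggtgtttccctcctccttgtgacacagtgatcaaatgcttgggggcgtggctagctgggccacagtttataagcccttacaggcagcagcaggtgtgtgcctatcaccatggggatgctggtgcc
Oas1a: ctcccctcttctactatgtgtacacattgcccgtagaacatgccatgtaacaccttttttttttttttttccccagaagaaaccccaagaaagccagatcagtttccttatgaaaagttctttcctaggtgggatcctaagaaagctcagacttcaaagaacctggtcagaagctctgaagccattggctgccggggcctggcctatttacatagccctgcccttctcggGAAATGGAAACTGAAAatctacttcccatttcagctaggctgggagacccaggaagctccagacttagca
Stat2: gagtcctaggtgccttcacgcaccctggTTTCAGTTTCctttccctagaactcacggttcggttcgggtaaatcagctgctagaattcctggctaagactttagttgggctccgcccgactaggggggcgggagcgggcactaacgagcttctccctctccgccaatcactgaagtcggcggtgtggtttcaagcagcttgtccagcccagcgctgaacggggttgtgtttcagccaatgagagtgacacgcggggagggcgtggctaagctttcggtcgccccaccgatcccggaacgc
Oasl2: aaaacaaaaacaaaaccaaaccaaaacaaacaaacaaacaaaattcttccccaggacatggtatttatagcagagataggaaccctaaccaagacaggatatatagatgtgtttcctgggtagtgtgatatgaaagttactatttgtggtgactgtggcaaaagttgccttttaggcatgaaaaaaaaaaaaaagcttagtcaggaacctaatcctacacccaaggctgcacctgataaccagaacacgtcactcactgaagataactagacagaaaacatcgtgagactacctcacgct

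In Isg15 there were 3 overlapping matches, with first bases at -78, -72 and -66 from the start site. In Oas1a there were 2 overlapping matches, at -20 and -14. Rsad2 and Stat2 each had 1 match on the opposite strand, at -120 and -222. Over the members with a promoter, 13 of 30 held the core (43.3%), against 4.0% of 27025 genes. Counted by promoter, these were 14 of 35 (40.0%), against 3.4% of 32851 promoters. The core of the gamma-activated site, TTCNNNGAA, was in 8 of 30 members (26.7%), against 9.6% of genes. Both cores were in 3 members, Oas1a, Eif2ak2 and Bst2, and in Bst2 a match of 1 overlapped a match of the other. Matches are letters in a window, and where no match was found, as in Oasl2, only these letters are absent from these 300 bases.

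**Figure D1:**
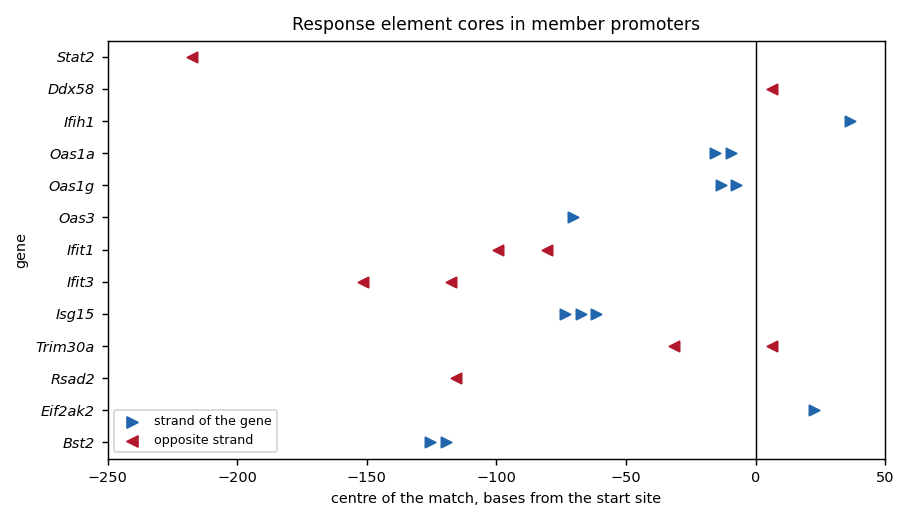
Position of each match to the response element core in the 13 members that hold it. The x axis is the distance of the centre of the match from the start site in bases, the y axis lists the genes, and the arrowhead and colour give the strand. The 3 matches in Isg15 lie close together and that in Stat2 lies farthest upstream.

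Levels of the members are CPM (counts per 1 M counts) after TMM scaling, and log2 fold changes with their standard error (SE) come from the quasi-likelihood test of edgeR over 15389 genes. Calls needed an adjusted p (Benjamini-Hochberg, over all genes tested) below 0.05. Depth was even, with 15.12 M to 19.83 M counts a library, where M stands for mega. The summed level of the 38 members was 903 to 928 CPM in ES cells on p53-defective feeders, 979 to 1020 CPM with ATN161, 2170 to 2350 CPM after feeder removal, 2470 to 2520 CPM on control feeders, 516 to 601 CPM in p53-defective feeders and 1880 to 2080 CPM in control feeders. All libraries of both groups with p53-defective feeders and of the ATN161 group lay below all those of the other 3 groups. The lowest of the 6 group means was that of p53-defective feeders for 29 members, of ATN161 for 8 and of ES cells on p53-defective feeders for 1. The highest was that of ES cells after removal for 13 members, of ES cells on control feeders for 12, of control feeders for 8, of ES cells on p53-defective feeders for 4 and of p53-defective feeders for 1.

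**Figure D2:**
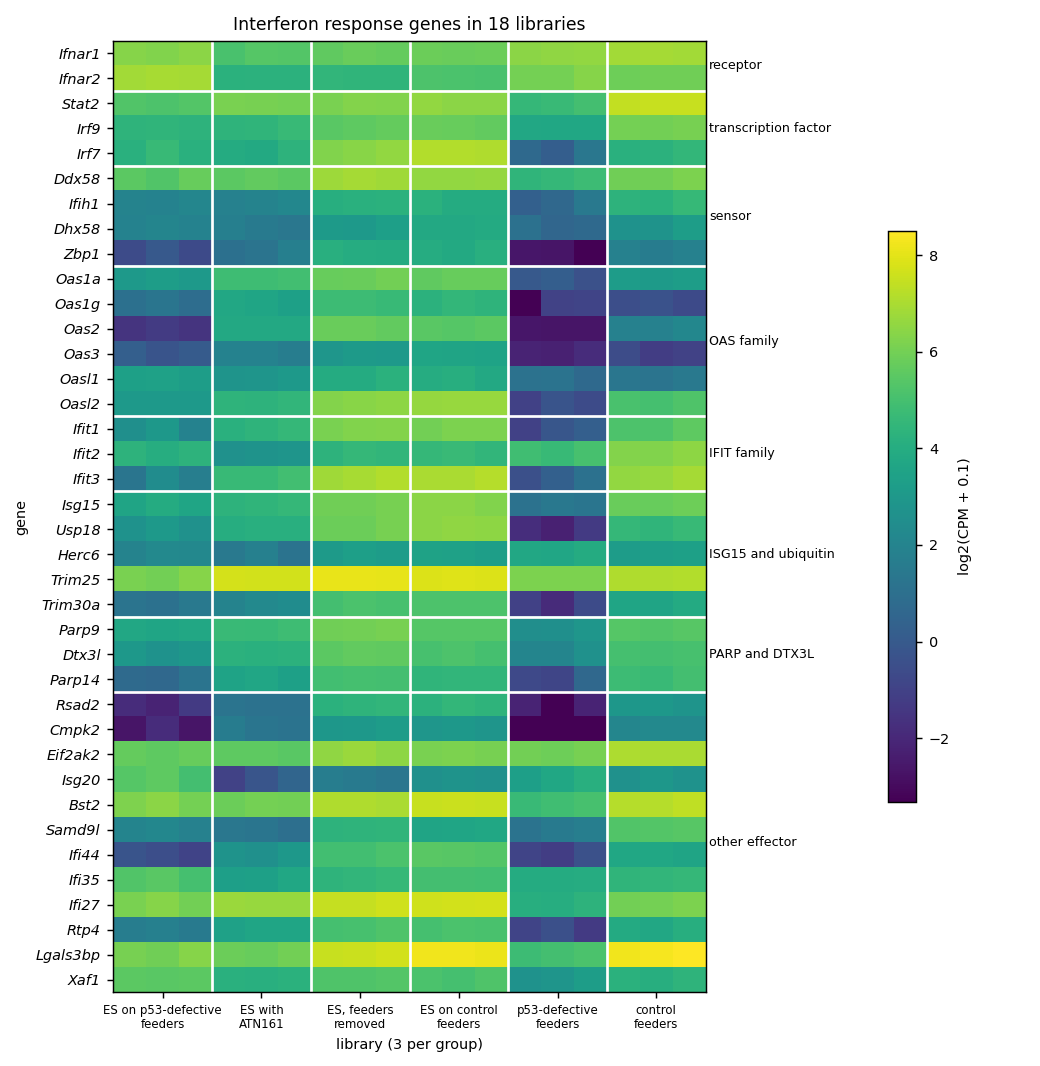
Level of each of the 38 members in each of the 18 libraries, as log2(CPM + 0.1) in colour, with genes in rows grouped by role and 3 libraries per group in columns. Most members are dark in p53-defective feeders, where 29 have their lowest mean, and intermediate in ES cells with ATN161.

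Levels of different genes can be compared only per length, for which the deposited TPM (a transcript level per length and per library) were used. Bst2, or tetherin, which holds virus at the cell surface, was the most abundant member in ES cells on control feeders at 568 ± 8.5 TPM, in ES cells after removal at 400.2 ± 28.8 TPM and in control feeders at 521 ± 28.9 TPM (mean ± SD, n = 3 each). In p53-defective feeders the receptor chain Ifnar2 came first at 104 ± 17.9 TPM, with Bst2 at 98.7 ± 14.5 TPM, a gap smaller than either SD. In ES cells on p53-defective feeders Bst2 stood at 146 ± 7.7 TPM and Ifnar2 at 123 ± 10.5 TPM.

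Several facts of the cultures bear on every value. Trp53 RNA was at 296 ± 45 CPM in p53-defective feeders and 119 ± 6.8 CPM in control feeders, while the p53 target Mdm2 was at 164 ± 13 CPM in p53-defective and 437 ± 8.4 CPM in control feeders. Cdkn1a, another p53 target, was at 260 ± 65 CPM in p53-defective and 664 ± 16 CPM in control feeders. These RNA levels do not show the state of the p53 protein, and the name p53-defective is used as the labels give it. Summed over 15 fibroblast markers, p53-defective feeders had 5470 to 7740 CPM and control feeders 33500 to 40500 CPM. The 10 mesothelial markers summed to 1300 to 1940 CPM in p53-defective and 59.3 to 68.5 CPM in control feeders. Of these 10, 7 were called higher in p53-defective feeders, 2 lower and 1 was not called. Msln (775 CPM) and Upk3b (458 CPM) had the highest means in p53-defective feeders. Krt8 (0.385 against 1.8 CPM) and Krt18 (0.279 against 6.1 CPM) were lower in p53-defective than in control feeders. Of 15 macrophage markers, 8 were at 0 in p53-defective feeders (Ptprc, Adgre1, Tyrobp, Fcer1g, C1qa, C1qb, C1qc and Laptm5) and none in control feeders, with sums of 11.1 to 15 CPM in p53-defective and 151 to 205 CPM in control feeders. Summed over 15 ES cell markers, cultures had 6700 to 6950 CPM with ATN161, 5560 to 5710 CPM after feeder removal, 148 to 172 CPM in p53-defective feeders and 129 to 164 CPM in control feeders. In the feeders these sums were mostly Klf4 (113 CPM in p53-defective and 143 CPM in control feeders) and, in p53-defective feeders, Tfcp2l1 (49.2 CPM), and 9 of 15 markers in p53-defective and 7 of 15 in control feeders, Pou5f1 among them, were at 0. Genes specific to ES cells (429 genes) stood in ES cells on p53-defective feeders at 8.08% and in ES cells on control feeders at 80.9% of their level after feeder removal. In these bulk libraries fewer cells of a type and less RNA per cell cannot be told apart. The p53 label and the make-up of the feeders differ between the same libraries, so these cannot be told apart either.

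The comparison of p53-defective with control feeders asks what set these feeders apart before ES cells were added. Of the 38 members, 34 fell, 3 rose and 1 was not called, with a median log2 fold change of -2.74, against -0.01 over all genes tested. Over all genes, 38.4% were called lower and 35.9% higher. A fall of 2-fold or more was called in 31 members, against 3193 of the 15389 genes tested. The members that rose were Ifnar2, the ubiquitin-like ligase gene Herc6 and the exonuclease gene Isg20.

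The receptor chains changed little. Ifnar1 was at 86.9, 93.4 and 96.2 CPM in p53-defective feeders and at 116, 118 and 115 CPM in control feeders, without overlap, a log2 fold change of -0.34 ± 0.07 (adjusted p = 0.000279). Ifnar2 was at 64.4, 66.1 and 80.6 CPM in p53-defective feeders and at 58.3, 61.4 and 61.4 CPM in control feeders, a log2 fold change of 0.22 ± 0.07 (adjusted p = 0.011). The call for Ifnar2 was lost without p53-defective feeder replicate 3, where the log2 fold change was 0.11, and in a fit of these groups alone, where it was 0.21 (adjusted p = 0.0651), and on a scale set by feeder-specific genes its sign turned (-0.05).

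All 3 transcription factors fell. Stat2 was at 23, 25.6 and 30.8 CPM in p53-defective feeders, against 169, 179 and 180 CPM in control feeders, a 6.63-fold fall (log2 -2.73 ± 0.09, adjusted p = 9.46e-18). Irf9 was at 13.3, 12.9 and 13.1 CPM in p53-defective feeders, against 64.2, 63.8 and 66.5 CPM in control feeders, a 4.95-fold fall (-2.31 ± 0.08, adjusted p = 5.77e-17). The highest p53-defective library lay far below the lowest control library for both. Irf7, the factor that amplifies interferon production, fell to a mean of 1.69 CPM in p53-defective feeders, against 20 CPM in control feeders.

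Downstream, the 4 sensors of foreign nucleic acid all fell, with log2 fold changes of -1.42 for Ddx58 (RIG-I), -2.20 for Dhx58 and -3.56 for Ifih1 (MDA5). Zbp1, which binds Z-form nucleic acid, had 2 counts in all in p53-defective feeders and 175 in control feeders, 82.7-fold apart (95% exact interval 22.6 to 688, counting error only). Of the 6 oligoadenylate synthetase family genes, whose products activate RNase L or resemble those that do, 5 fell. Oasl2 was at 0.381, 0.751 and 0.552 CPM in p53-defective feeders and at 34.6, 32.4 and 38 CPM in control feeders, a 61.0-fold fall (-5.93 ± 0.14, adjusted p = 6.93e-20). Oas2 had 3 counts in all in p53-defective feeders and 200 in control feeders, 63.0-fold apart (95% exact interval 21.3 to 308). Oasl1, at means of 1.92 CPM in p53-defective and 2.45 CPM in control feeders, was not called (-0.35 ± 0.19, adjusted p = 0.103).

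Among the ISG15 and ubiquitin genes, Isg15 was at 2.09, 2.6 and 2.33 CPM in p53-defective feeders, against 55.4, 53.1 and 59 CPM in control feeders (23.7-fold lower, adjusted p = 7.26e-19). Usp18, which removes Isg15 from proteins and restrains the receptor, was at 0.19, 0.115 and 0.307 CPM (3, 2 and 5 counts) in p53-defective feeders, against 23.1, 21.4 and 24.8 CPM in control feeders (110-fold lower, adjusted p = 3.06e-18). Both sets of libraries were far apart. Herc6, an Isg15 ligase in the mouse, went the other way, at 13.7, 12.6 and 15.1 CPM in p53-defective feeders against 9.22, 9.65 and 10.5 CPM in control feeders (0.50 ± 0.12, adjusted p = 0.000955), a call lost on the scale of feeder-specific genes (0.23). All 3 IFIT genes, whose products bind foreign RNA, fell. Ifit3 was at 0.635, 1.15 and 2.02 CPM in p53-defective feeders, against 96.6, 101 and 119 CPM in control feeders (82.2-fold lower), and Ifit1 was 51.1-fold and Ifit2 2.83-fold lower. Parp9, Dtx3l and Parp14, which encode ADP-ribosyltransferases and a ubiquitin ligase that acts with Parp9, fell by 2.70, 2.76 and 5.10 on the log2 scale.

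Of the other 12 effectors, 11 fell. Samd9l, a restriction factor, was at 2.16, 2.77 and 3.25 CPM in p53-defective feeders, against 39, 40.5 and 42.5 CPM in control feeders (14.8-fold lower, adjusted p = 5.91e-18). The secreted glycoprotein gene Lgals3bp was at 27.2, 31.1 and 35.4 CPM in p53-defective feeders, against 301, 321 and 361 CPM in control feeders (10.5-fold lower, adjusted p = 1.15e-17). Cmpk2, a nucleotide kinase gene, had no count in p53-defective feeders and a mean of 4.44 CPM in control feeders, at least 73.1-fold lower if the floor is taken as 3 counts in the group's libraries together. The members' median was -2.74 with Cmpk2 at that bound as well. Isg20 rose 2-fold, at 9.96, 13.1 and 17.3 CPM in p53-defective feeders against 6.28, 7.57 and 6.31 CPM in control feeders (adjusted p = 8.86e-05).

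Members with the response element core in their promoter had a median log2 fold change of -3.37 (13 genes) and those with a promoter but no core one of -1.50 (17 genes). The medians were -2.69 and -1.36 for ES cells on p53-defective over control feeders, and -1.26 and -1.71, in the other order, for ATN161 over removal, which is a description and was not tested. Ifnb1, the interferon beta gene, had no count in either kind of feeder. Ifnz, another interferon gene, had no count in p53-defective feeders and was at 0.566, 0.578 and 1.22 CPM in control feeders. It was called lower (adjusted p = 4.26e-06), but at so few counts the size of its fall is uncertain. Of 48 other interferon-stimulated genes tested, 35 fell and 6 rose (median -1.17), among them Slfn9 (-4.42 ± 0.14), Slfn2 (-6.64 ± 0.24) and Parp12 (-2.08 ± 0.09), which fell. Of 18 signalling genes, 7 fell and 7 rose, and those that fell included Tyk2 (-1.01 ± 0.08), Jak1 (-0.97 ± 0.09) and Irf1 (-0.47 ± 0.10). The part in these falls of the macrophage, mesothelial and fibroblast markers that moved with them was not tested.

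**Figure D3:**
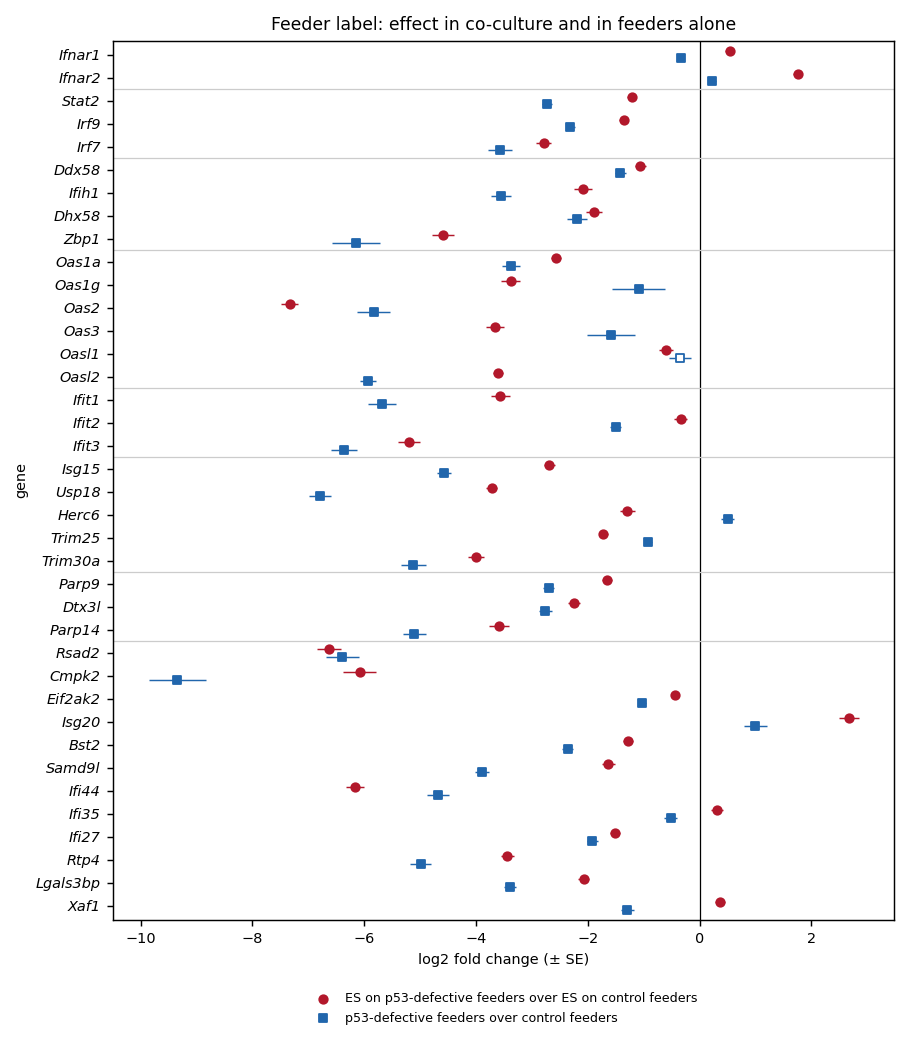
Log2 fold change (x axis) with its SE for each member (y axis, in order of role), for ES cells on p53-defective over control feeders (circles) and p53-defective over control feeders alone (squares), with open symbols where a gene was not called. Most points lie left of 0, with medians of -2.08 and -2.74, and Isg20 and Ifnar2 lie right of 0 in both on this TMM scale, where Ifnar2 turns to the left in both and Isg20 in neither with feeder-specific scaling.

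ES cells on p53-defective feeders were then set against ES cells on control feeders. Of the 38 members, 33 fell and 5 rose, with a median of -2.08 against -0.18 over all genes. Over all genes, 46.7% were called lower and 36.6% higher. The members that rose were both receptor chains, Isg20, Ifi35 and the apoptosis gene Xaf1. The split moved with the scale. On a scale set by ES-specific genes 24 members were higher and 8 lower (median 1.3), and on a scale set by feeder-specific genes 0 were higher and 37 lower (median -4.55). The median of all genes moved as well, to 3.20 and -2.64, so that the members lay 1.9 below the median gene on the log2 scale in each of the 3 (-1.90, -1.90 and -1.91). A change of scale moves every gene of a comparison by about the same amount. This distance could therefore hardly change, and it does not test the split.

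Both receptor chains were higher. Ifnar2 was at 116, 123 and 119 CPM on p53-defective feeders, against 36.7, 35 and 34.2 CPM on control feeders, a 3.38-fold rise (1.76 ± 0.08, adjusted p = 1.74e-15). Ifnar1 was at 81.2, 76.3 and 88 CPM on p53-defective feeders, against 57.3, 55 and 56.4 CPM on control feeders (0.54 ± 0.08, adjusted p = 7.29e-07). On the scale of feeder-specific genes both were lower instead, at -0.70 for Ifnar2 and -1.92 for Ifnar1.

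The transcription factors fell on the TMM scale. Stat2 was at 38.8, 36.5 and 40.5 CPM on p53-defective feeders, against 94.1, 87.3 and 85.6 CPM on control feeders (-1.21 ± 0.08, adjusted p = 6.36e-12). Irf9 was at 20.8, 21.1 and 20 CPM on p53-defective feeders, against 55.3, 53.6 and 50 CPM on control feeders (-1.36 ± 0.08, adjusted p = 2.12e-13). Relative to ES-specific genes both were higher, at 2.18 and 2.03. Outside the list Tyk2 fell (-0.42 ± 0.08), Jak1 rose (0.28 ± 0.09), and Irf1 was not called (0.13 ± 0.09, adjusted p = 0.193).

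All 4 sensors fell. Ifih1 was at 3.76, 3.62 and 4.22 CPM on p53-defective feeders, against 18.6, 15.5 and 15.5 CPM on control feeders (4.27-fold lower), Ddx58 was 2.09-fold and Dhx58 3.7-fold lower, and Zbp1 was at 0.546, 0.874 and 0.535 CPM on p53-defective feeders, against 15.9, 14.4 and 17.2 CPM on control feeders (24.2-fold lower). None of these groups of libraries overlapped.

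All 6 oligoadenylate synthetase family genes fell. Oas2 was at 0.243, 0.312 and 0.238 CPM (4, 5 and 4 counts) on p53-defective feeders, against 43.7, 41.3 and 45.4 CPM on control feeders, a 161-fold fall (-7.33 ± 0.15, adjusted p = 1.73e-20). Oasl2 was at 8.13, 8.42 and 8.44 CPM on p53-defective feeders, against 98.9, 103 and 101 CPM on control feeders (12.1-fold lower, adjusted p = 2.27e-19). Oas1a, whose promoter with its 2 matches is shown above, was at 8.37, 9.49 and 8.38 CPM on p53-defective feeders, against 49, 53.2 and 53.6 CPM on control feeders (5.94-fold lower, adjusted p = 5.35e-17). Relative to ES-specific genes Oas1a was higher (0.81) and Oasl2 was not called (-0.21, adjusted p = 0.064).

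Usp18 was at 6.43, 7.93 and 6.12 CPM on p53-defective feeders, against 85.7, 93.4 and 91.1 CPM on control feeders (13.2-fold lower, adjusted p = 1.47e-18). Ifi44 was at 0.728, 0.624 and 0.416 CPM on p53-defective feeders, against 43.6, 43.4 and 40.3 CPM on control feeders (71.4-fold lower, adjusted p = 5.32e-19). Rsad2 was at 0.182, 0.125 and 0.297 CPM (3, 2 and 5 counts) on p53-defective feeders, against 19.2, 22.5 and 20.5 CPM on control feeders (99.0-fold lower, adjusted p = 1.3e-17). In each the libraries on p53-defective feeders lay far below those on control feeders. Ifit3 was at 2.3, 5.24 and 3.27 CPM on p53-defective feeders, against 126, 127 and 143 CPM on control feeders (36.7-fold lower), and Ifit1 was 11.9-fold lower. Ifit2, of the same family, was at 19.7, 16.3 and 19.8 CPM on p53-defective feeders, against 23, 25.7 and 22.1 CPM on control feeders, only 1.27-fold lower (adjusted p = 0.00633). Parp14 was 12.1-fold, Dtx3l 4.77-fold and Parp9 3.13-fold lower, and Bst2 was at 73.7, 87.6 and 64.4 CPM on p53-defective feeders, against 179, 185 and 184 CPM on control feeders (2.43-fold lower). Isg20 was higher at 41.3, 47.7 and 31.2 CPM on p53-defective feeders, against 6.09, 6.53 and 6.28 CPM on control feeders (6.35-fold higher, adjusted p = 7.98e-12), a rise not called on the scale of feeder-specific genes (0.22). Of 48 other interferon-stimulated genes, 33 fell and 8 rose (median -0.75), with Phf11d at -3.68 ± 0.11 and Trim34a at -3.73 ± 0.14. Ifnb1 had no count on p53-defective feeders and was at 0.246, 0.143 and 0.0973 CPM on control feeders, too few to be tested.

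Markers of several cell types moved with these changes. All 15 ES cell markers fell, with a sum of 372 to 509 CPM on p53-defective feeders and 4110 to 4270 CPM on control feeders. All 10 mesothelial markers rose, with sums of 2090 to 2170 CPM on p53-defective and 44.6 to 48.3 CPM on control feeders, and 9 of 15 fibroblast markers rose and 3 fell. Of 14 macrophage markers tested, 3 rose, 3 fell and 8 were not called (median 0.33). Csf1r (4.91 ± 0.40) and Cd14 (3.92 ± 0.15) rose. Laptm5, which was also at 116 to 128 CPM in ES cells after removal, fell (-4.57 ± 0.13), with means of 4.07 CPM on p53-defective and 96.8 CPM on control feeders. The endothelial markers summed to 25.6 to 29.5 CPM on p53-defective and 222 to 225 CPM on control feeders. Of 8 tested, 5 fell, 1 rose and 2 were not called. The highest on control feeders were Pecam1 (99.2 CPM), Eng (86.7 CPM) and Tek (22.4 CPM). These 3 were also at 102, 101 and 27.1 CPM in ES cells after removal. Kdr rose, at 3.51 CPM on p53-defective and 0.613 CPM on control feeders. The part of all these markers in the members' changes was not tested.

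**Figure D4:**
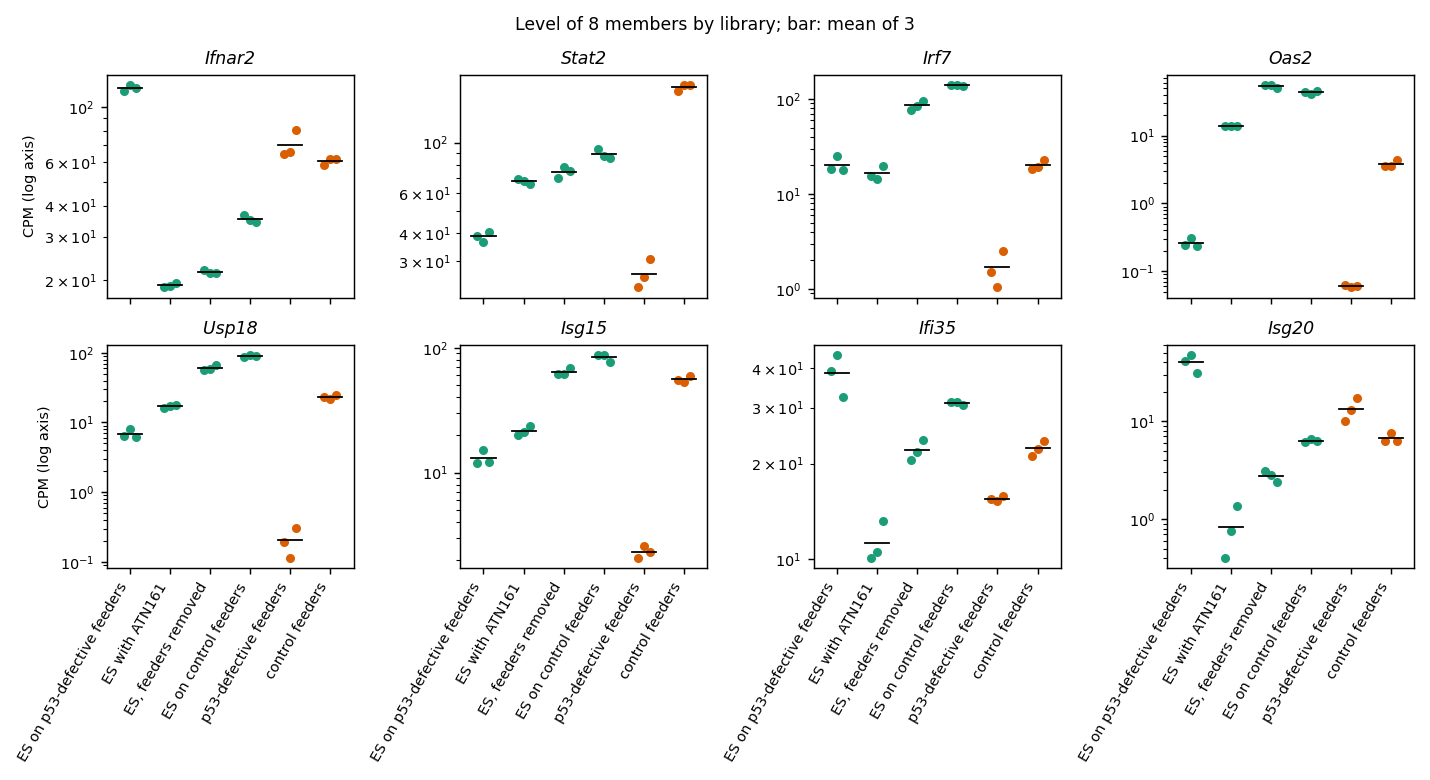
CPM on a log axis of 8 members in each library, with ES cell cultures in green, feeders alone in orange and a bar at the mean of 3 libraries. Ifnar2, Ifi35 and Isg20 have their highest values in ES cells on p53-defective feeders, and Stat2 has its highest in control feeders, at 169 to 180 CPM.

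Whether the effect of the p53-defective feeders was the same with and without ES cells was tested as the difference of both effects. It was called for 33 members, 28 with a higher and 5 with a lower value in co-culture, against 38.8% and 34.8% of all genes, and the median difference was 1.07 (1.0 with Cmpk2 at its bound) against 0.04 over all genes. The smallest p-values were those of Ifnar2 (1.54 ± 0.11, adjusted p = 1.11e-11), Stat2 (1.52 ± 0.12), Samd9l (2.26 ± 0.18), Xaf1 (1.65 ± 0.15) and Oasl2 (2.33 ± 0.21). Xaf1 fell in feeders alone (-1.29 ± 0.11) and rose in co-culture (0.36 ± 0.09), as did Ifnar1 and Ifi35, while Herc6 rose in feeders (0.50) and fell in co-culture (-1.29). On the scale of ES-specific genes 35 members were called with a higher and 0 with a lower difference, and on that of feeder-specific genes 1 was called with a higher and 28 with a lower one. On that last scale Samd9l (0.06, adjusted p = 0.777) and Oasl2 (0.12, adjusted p = 0.629) were not called, and Ifnar2, Stat2 and Xaf1 turned sign.

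Both kinds of co-culture were also set against their own feeders alone. ES cells on p53-defective feeders had 31 members higher and 4 lower than those feeders (median 1.33, or 1.28 with Cmpk2 at its bound, against 0.27 over all genes), where 46.7% of all genes were higher and 33% lower. All 15 fibroblast markers were higher too (median 1.42), as were 7 of 10 mesothelial, 7 of 14 macrophage and 13 of 15 ES cell markers, and their part in the members' rise was not tested. Usp18 was at 6.82 ± 0.97 CPM in these co-cultures and 0.204 ± 0.096 CPM in the feeders alone (32.6-fold higher). Oasl2 was 14.5-fold, Oas1a 9.97-fold, Xaf1 5.93-fold, Isg15 5.53-fold and Ifi27 4.03-fold higher in the co-cultures. Xaf1 averaged 45.1 CPM in the co-cultures and 7.59 CPM in the feeders alone, and Ifi27 71.5 CPM in the co-cultures and 17.7 CPM in the feeders alone. The 4 lower members were Herc6 (-1.68 ± 0.14), Ifit2 (-0.63 ± 0.11), Eif2ak2, which encodes the kinase PKR (-0.30 ± 0.08), and Ifnar1 (-0.17 ± 0.07). The count of lower members was 2 without p53-defective feeder replicate 1, and the call of Ifnar1 was lost when any 1 of the 6 libraries was left out (log2 fold changes of -0.17 to -0.05). Eif2ak2 was not called without p53-defective feeder replicate 1 (-0.18) and higher with curated transcripts alone (0.82), and Ifit2 was at -0.59 with these but not called (adjusted p = 0.178). Ifnar2 (0.76 ± 0.07), Stat2 (0.54 ± 0.09) and Irf9 (0.66 ± 0.09) rose.

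ES cells on control feeders had 24 members higher and 9 lower than control feeders (median 0.66 against 0.08 over all genes), where 44.3% of all genes were higher and 39.9% lower. On the scale of feeder-specific genes all 38 were higher. All 15 fibroblast markers and 12 of 14 macrophage markers were lower in these co-cultures and all 15 ES cell markers were higher, and their part in the members' values was not tested. Among the members named here Oas1g, Oas3 and Oas2 rose the most, by 33.8-fold, 26.6-fold and 11.3-fold. Oas1g averaged 20.9 CPM in co-culture and 0.612 CPM in control feeders alone, and Oas3 11.9 CPM in co-culture and 0.439 CPM in control feeders alone. Oas1a rose 5.73-fold. Irf7 rose 6.98-fold and Usp18 3.90-fold. Ifnar1 (-1.05 ± 0.08), Ifnar2 (-0.77 ± 0.08), Stat2 (-0.98 ± 0.08), Samd9l (-1.73 ± 0.10) and Ifit2 (-1.80 ± 0.10) fell, as did Irf9 (-0.29 ± 0.07), whose call was lost without replicate 3 of ES cells on control feeders (-0.17). For 4 members, Ifnar2, Isg20, Ifi35 and Xaf1, the 3 co-cultures on p53-defective feeders lay above all 6 libraries of those feeders and of ES cells after removal, against 24% of all genes. The same held on control feeders for 10 members (Irf7, Dhx58, Oas3, Oasl2, Isg15, Usp18, Trim30a, Bst2, Ifi44 and Ifi35), against 11.6% of all genes.

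ES cells after feeder removal were set against the control feeders too. In this comparison 22 members were higher and 9 lower (median 0.74 against 0.09 over all genes), where 45.1% of all genes were higher and 40.8% lower. All 15 fibroblast and 12 of 14 macrophage markers were lower in the ES cells, and all 15 ES cell markers were higher. All 6 OAS family genes were higher in the ES cells. Oas1g was at 27.3, 27.3 and 25 CPM in ES cells after removal, against 0.622, 0.694 and 0.521 CPM in control feeders (42.9-fold), and Oas2 at 55.3, 56.3 and 49.7 CPM in ES cells after removal, against 3.56, 3.53 and 4.4 CPM in control feeders (14.0-fold). In both genes the groups were far apart. Oas3 (17.8-fold), Oasl1 (6.67-fold) and Oas1a (6.35-fold) followed. The ES cells were lower in Ifnar1 (-1.16 ± 0.08), Ifnar2 (-1.48 ± 0.08), Stat2 (-1.24 ± 0.08), Irf9 (-0.44 ± 0.07) and Ifit2 (-1.91 ± 0.10). Oas1a, Oas1g, Oas2 and Oas3 lie together on chromosome 5 between bases 120730333 and 120907544 of GRCm38, and how reads shared by these similar genes were divided is not given in the sources used here.

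ES cells after removal of the control feeders were set against ES cells on control feeders. Of the 38 members, 13 fell, 8 rose and 17 were not called (median -0.09 against -0.01 over all genes), where 26.5% of all genes were lower and 25.5% higher. On the scale of ES-specific genes 20 were lower and 2 higher. A single member, Isg20, changed by 2-fold or more (-1.18 ± 0.24, at 3.13, 2.83 and 2.38 CPM after removal against 6.09, 6.53 and 6.28 CPM on control feeders). Of the 15389 genes tested, 825 were called lower and 417 higher by 2-fold or more. Ifnar2 fell (-0.71 ± 0.08) at 22, 21.4 and 21.3 CPM after removal, against 36.7, 35 and 34.2 CPM on control feeders. Irf7 (-0.71 ± 0.12), Lgals3bp (-0.64 ± 0.10), Usp18 (-0.57 ± 0.08) and Stat2 (-0.26 ± 0.08) fell too. Parp9, Dtx3l and Parp14, which stand next to each other on chromosome 16, all rose. Parp9 was at 61.2, 64 and 67.1 CPM after removal, against 41.1, 42.1 and 41.4 CPM on control feeders (0.63 ± 0.08), without overlap. Samd9l (0.74 ± 0.10) and Eif2ak2 (0.48 ± 0.07) rose as well. With curated transcripts alone the log2 fold changes were of similar size, at 0.57 for Parp9 and 0.89 for Samd9l, but were not called (adjusted p = 0.131 and 0.164), and on the scale of ES-specific genes Eif2ak2 was not called (0.22, adjusted p = 0.0889). Ifnar1 (-0.11 ± 0.08) and Irf9 (-0.15 ± 0.07, adjusted p = 0.0905) were not called, and their libraries overlapped. On the scale of ES-specific genes Ifnar1 was called lower (-0.37, adjusted p = 0.00501). Irf9 was called lower in 7 alternatives, among them leaving out replicate 3 of ES cells after removal (-0.25) or of ES cells on control feeders (-0.24), no filter or a stricter filter on low counts, a fit of these groups alone, curated transcripts and the scale of ES-specific genes, with log2 fold changes of -0.41 to -0.15. Of the fibroblast markers 9 of 15 fell and 1 rose, with sums of 4340 to 4750 CPM after removal and 6840 to 7180 CPM on control feeders, and 13 of 15 ES cell markers rose. Feeder-specific genes stood at 7.26% after removal and 11.6% on control feeders of their level in control feeders alone. These genes were chosen as low after removal but not on control feeders, so the lower value after removal is partly built in. The part of these shifts in the members' values was not tested.

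With ATN161 in place of feeders, all 38 members were lower than in ES cells on control feeders (median -1.60 against 0.07 over all genes), where 28% of all genes were lower and 33.6% higher. Oasl2 was at 20.5, 20 and 22.1 CPM with ATN161, against 98.9, 103 and 101 CPM on control feeders (4.83-fold lower, adjusted p = 5.66e-16). Rsad2 was 9.72-fold, Trim30a 7.98-fold, Ifi44 6.23-fold, Usp18 5.28-fold and Lgals3bp 5.14-fold lower. All 15 fibroblast markers were lower as well (median -2.07), with sums of 1040 to 1150 CPM with ATN161 and 6840 to 7180 CPM on control feeders, and 13 of 15 ES cell markers were higher and 2 lower. Their part in the members' fall was not tested. The smallest changes among members named in every comparison were those of Stat2 (-0.40 ± 0.08) and Ifnar1 (-0.54 ± 0.08), followed by Ifnar2 (-0.89 ± 0.08) and Irf9 (-1.26 ± 0.08).

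Against ES cells after removal, ATN161 cultures had 36 members lower and 0 higher (median -1.54 against 0.03 over all genes), where 26.8% of all genes were lower and 28.6% higher. A fall of 2-fold or more was called in 31 members, against 1399 of the 15389 genes tested. Rsad2 was at 2.22, 2.08 and 2.08 CPM with ATN161, against 18.8, 20.5 and 22.1 CPM after removal (9.60-fold lower, adjusted p = 2.83e-14). Samd9l was at 2.48, 2.33 and 1.92 CPM with ATN161, against 20, 20.3 and 21.3 CPM after removal (9.12-fold lower, adjusted p = 7.02e-15). Trim30a, an inhibitor of inflammatory signalling in the mouse, was at 3.84, 4.56 and 5.35 CPM with ATN161, against 31.2, 35.1 and 33.2 CPM after removal (7.24-fold lower, adjusted p = 4.46e-14). In these 3 genes the groups were separated by more than their whole spread. The 4 sensors fell, with Zbp1 6.37-fold and Ifih1 4.57-fold lower, as did the IFIT genes (Ifit3 4.72-fold, Ifit1 3.62-fold and Ifit2 3.26-fold lower). Isg20 was at 0.404, 0.76 and 1.35 CPM with ATN161, against 3.13, 2.83 and 2.38 CPM after removal (3.31-fold lower, adjusted p = 0.000192). Trim25, a ubiquitin ligase gene that acts on RIG-I, was at 211, 204 and 204 CPM with ATN161, against 272, 273 and 267 CPM after removal, 1.31-fold lower (adjusted p = 9.81e-05). Ifi44 (4.69-fold), Oasl2 (4.04-fold) and Oas2 (3.85-fold) were lower as well.

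Stat2 and Ifnar2 were the 2 members without a call. Stat2 was at 68.9, 67.8 and 65.6 CPM with ATN161 and 70.1, 78.1 and 75.3 CPM after removal, and was not called (-0.14 ± 0.08, adjusted p = 0.136). Ifnar2 was at 18.7, 19 and 19.5 CPM with ATN161 and 22, 21.4 and 21.3 CPM after removal (-0.18 ± 0.08, adjusted p = 0.0776). In neither did the libraries overlap, and in a fit of these groups alone both were called lower. Ifnar1 fell (-0.43 ± 0.08), Irf9 fell (-1.11 ± 0.08) at 20.8, 21.3 and 24.5 CPM with ATN161 against 44.9, 47.2 and 51.2 CPM after removal, and Irf7 fell 5.17-fold. Of 48 other interferon-stimulated genes, 36 fell and 3 rose (median -0.90), among them Ddx60 (-3.46 ± 0.18), Rnf213 (-2.21 ± 0.12) and the chemokine gene Cxcl10 (-2.82 ± 0.16), which fell. Ifnb1 was at 0, 0.0507 and 0 CPM with ATN161 and at 0.165, 0.0534 and 0.108 CPM after removal, too few counts to be tested.

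Fibroblast markers moved with these falls. All 15 were lower with ATN161 than after removal (median -1.89), and their sum was 1040 to 1150 CPM with ATN161 and 4340 to 4750 CPM after removal. Feeder-specific genes stood at 4.51% with ATN161 and 7.26% after removal of their level in control feeders alone. Both values were held low by the choice of these genes. The part of these shifts in the members' falls was not tested. Oas1g was at 13.4, 12.1 and 10.5 CPM with ATN161, at 27.3, 27.3 and 25 CPM after removal, and at 0.521 to 0.694 CPM in control feeders. Across the 38 members the log2 fold changes of p53-defective over control feeders and of ATN161 over removal, which share no library, had Pearson's r of 0.59 and Spearman's rho of 0.67, given as a description since genes are not independent.

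**Figure D5:**
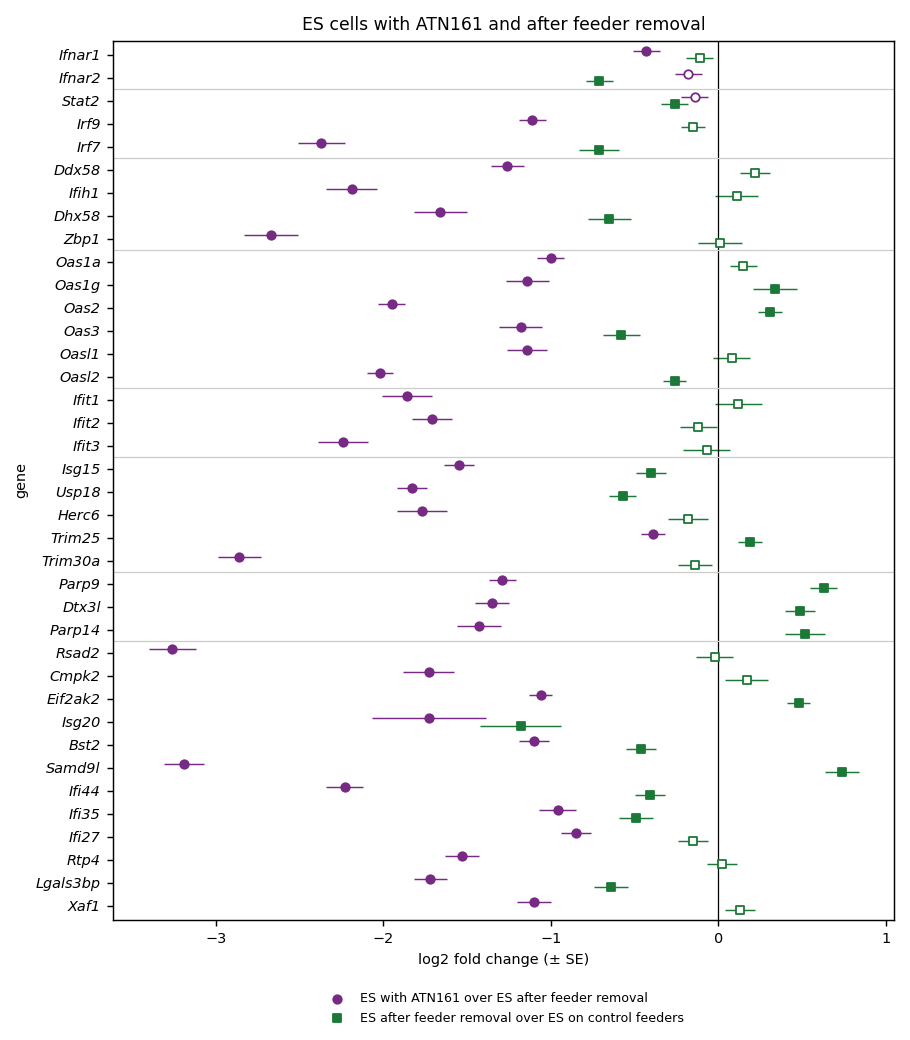
Log2 fold change (x axis) with its SE for each member (y axis, in order of role), for ES cells with ATN161 over ES cells after removal (circles) and for ES cells after removal over ES cells on control feeders (squares), with open symbols where a gene was not called. All circles lie left of 0, with a median of -1.54, and the squares lie on both sides of 0, with a median of -0.09.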

How the data were processed

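Total RNA came from a Trizol extraction and entered a TruSeq mRNA kit, per the labels, which do not give strandedness. The submitters' processing notes list mm10 and GRCm38 as builds, and StringTie 1.3.3b, HISAT2 2.1.0, DESeq2 1.2.10 and SAMtools 1.4 as tools, without their roles. The authors deposited an estimated count and a TPM value for each of 75416 RefSeq transcripts, per the file headers, and the way reads were divided among transcripts is not given in the sources used here. Another 60 columns (FPKM, normalised counts and averages) were not used. Counts were summed per gene and rounded. The deposited TPM were summed per gene and used for levels between genes only. Tests used edgeR 4.0.16 in R 4.3.3 (TMM, filterByExpr, robust quasi-likelihood, two-sided) on all 18 libraries, with 1 coefficient per group, and 15389 genes were kept. The procedure was tested on simulated data in which few genes differed between the kinds of feeders. That does not test the scaling where most genes differ, as they did between these feeders. Figures were drawn with matplotlib.

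The members, gene lists and tests were chosen with earlier results of these data known. By rule, test values were given for Ifnar1, Ifnar2, Stat2 and Irf9, the 6 other members of smallest p with at least 1 CPM, up to 3 called against the majority, and the 5 of smallest p for the difference. Values of other members, some with a test (Oasl1, Ifit2, Isg20 and Trim25 among them), were added for their role after their values were seen. The scale of ES-specific genes rests on 429 genes with a mean of 10 CPM or more after removal and with ATN161, each 8-fold or more above either kind of feeder, and that of feeder-specific genes on 77 genes chosen in reverse, members left out. Whether the 3 libraries of a group came from different cultures is not given in the labels, so the p-values reflect the spread between libraries only, which may be technical. Replicate numbers did not pair the libraries. Floors are 3 counts over a group. Overlapping genes such as Parp9 and Dtx3l, and similar ones of the Oas and Ifit families, may share reads.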

Additional observations from a re-analysis of the deposited data

Results flagged for a closer look

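The effect of the p53-defective feeders differed between co-cultures and feeders alone for 28 members with a higher and 5 with a lower value in co-culture, tested as an interaction in edgeR, against 38.8% and 34.8% of all genes. On the scale of feeder-specific genes the counts were 1 higher and 28 lower. In log2 units the difference, co-culture minus feeders alone, was 1.54 for Ifnar2, 1.52 for Stat2, 2.26 for Samd9l, 1.65 for Xaf1 and 2.33 for Oasl2, of which Samd9l (0.06) and Oasl2 (0.12) were not called and the others turned sign with feeder-specific scaling. For genes called in opposite directions in these comparisons it was 0.88 for Ifnar1, 0.84 for Ifi35 and -1.79 for Herc6. ES-specific RNA differed between the co-cultures, at 8.08% on p53-defective and 80.9% on control feeders of the level after removal, and its part in these differences was not tested.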

How the results depend on the processing

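Of 1857 recomputed values, 1757 kept their direction and side of the threshold or their size, 100 did not and 21 of these changed sign. Medians had to stay within 0.095 on the log2 scale and counts of members within a set ratio, so small shifts counted as kept. Within these limits, scaling by DESeq2 size factors, the DESeq2 Wald test and limma-voom changed none of 120 values each, and the fit with a replicate block changed 0 of 120. The replicate numbers did not pair the libraries (correlations of deviations from -0.07 to 0.223). For the p53-defective feeders against control feeders, feeder-specific scaling gave 1 higher member and Ifnar2 at -0.05. In co-culture, ES-specific scaling gave 8 lower and 24 higher members, a median of 1.3, Stat2 at 2.18, Irf9 at 2.03 and Oas1a at 0.81. Feeder-specific scaling gave 0 higher members there, with Ifnar1 at -1.92 and Ifnar2 at -0.70. For removal, ES-specific scaling gave 20 lower and 2 higher members, and curated transcripts gave 3 higher. Leaving out 1 library gave 6 higher members there, against 8 with all libraries, which counted as kept. For ES cells on control feeders against those feeders, feeder-specific scaling gave 0 lower and 38 higher, with Ifnar1 at 1.87, Ifnar2 at 2.15, Stat2 at 1.94, Irf9 at 2.63, Samd9l at 1.2 and Ifit2 at 1.13. For ES cells on p53-defective feeders against those feeders, the lower count of 4 became 2 without a filter and 1 with curated transcripts or feeder-specific scaling, and leaving out 1 library gave 2 to 3. Ifnar1 was then at 0.55, Ifit2 at 0.10 and Eif2ak2 at 0.43 with feeder-specific scaling, and Eif2ak2 at 0.82 with curated transcripts. For the difference of effects, ES-specific scaling gave 0 lower members, and feeder-specific scaling gave 28 lower and 1 higher, a median of -1.13, Ifnar2 at -0.65, Stat2 at -0.66 and Xaf1 at -0.53. Apart from scaling, which moves every gene of a comparison by its own construction, the cause was not tested. Depth limits members at a few counts, such as Oas2, Zbp1, Rsad2, Usp18 and Cmpk2 in p53-defective feeders. It also limits Oas2, Rsad2 and Cmpk2 in ES cells on p53-defective feeders, so the size of these folds is uncertain.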
